A study of Mus musculus with 6 samples.

Results

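The narrow strong peaks are the compact stretches of open chromatin with the highest peak scores in an ATAC-seq table of mouse colon cancer organoids. They were chosen by a width under 1000 bp and an authors' score of 200 or more, and 1078 of 43020 peaks (2.51%) met both limits. They are 3.68% of the 29298 peaks under 1000 bp. The other 28220 narrow peaks, with scores under 200, served as the comparison. Another 664 peaks reached the score but were 1000 bp or wider. The table gives 1 score by the authors for each peak, and the sources used here do not say how it was made or what it measures. Peaks of higher score had more reads, so the strength of these peaks is a description of how they were chosen and not a result. Whether the score draws on differences between the groups is not known, and the tests between groups below are read with that limit.

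ATAC-seq uses the Tn5 transposase, which cuts DNA that is free of nucleosomes, so reads pile up where chromatin is open. Compact, densely cut sites are in general known from active promoters and from sites bound by CTCF, the insulator protein that anchors chromatin loops. Such sites tend to be open in many cell types, while distal enhancers tend to be weaker and to vary more with cell state. Which of the peaks described here are promoters, enhancers or CTCF sites was not analysed here, since the files use the mouse build mm9 and the annotation at hand is of another build. For the same reason marker loci of epithelium and of other cell types were not checked.

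Naive libraries, 3 in number, came from AKP organoids that had not been in a mouse. The primary tumour group held 3 libraries of AKP organoid lines, here called tumour lines 1, 2 and 3 after their replicate numbers, grown out of tumours that naive organoids had formed in the colon of C57Bl6 mice with an intact immune system, after passages that left cancer cells alone. All 6 libraries share the AKP genotype and the organoid culture. Growth in the mouse, outgrowth and passage cannot be told apart. Labels of the tumour-derived libraries also hold a separate identifier each, whose meaning is not given. The labels do not say whether replicates came from separate cultures, tumours or mice. P-values thus measure the spread between these libraries, which may be technical.

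Counts in peaks ran from 1185356 to 5987545 per library, with naive replicate 1 the shallowest and naive replicate 2 the deepest. The median narrow strong peak held 84 reads in the shallowest library and 491 in the deepest, and none of the 1078 was at 0 in any library. The median narrow peak of lower score held 9 and 35 reads in the same libraries, and 855 of the 28220 (3.03%) were at 0 in naive replicate 1. Values below are given as CPM: counts scaled to a library size of 1e6, adjusted by TMM, a correction for differences in composition between libraries. No interval for counting error accounts for PCR duplicates, on which the sources used here say nothing.

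Among themselves the narrow strong peaks were fairly uniform in width and level. Widths ran from 213 to 999 bp with a median of 800 bp, against a median of 549 bp for narrow peaks of lower score. Scores had a median of 270 with quartiles of 229 and 352, and 6 peaks had a score of 800 or more. The median level was 73.8 CPM per peak (quartiles 56.6 and 96.6), against 8.09 CPM (4.54 and 15.9) at narrow peaks of lower score. Per kb of peak the medians were 91.9 and 15.1 CPM, and 19.5 CPM at peaks of 1000 bp or more. Both contrasts follow from the rule.

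At the threshold, the last peaks inside and the first outside had nearly the same score. On chr8:26711793-26712732 the score was 200.05 and the mean level 102 CPM, and on chr11:100018797-100019783 they were 200.1 and 136 CPM. Just outside, a peak on chr17:23831233-23832143 had a score of 199.9 and 46.8 CPM. Next to it stood a peak on chr2:167642468-167643184 with 199.89 and 39.5 CPM. The threshold cuts a continuous range of scores.

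The highest scores belonged to peaks that were open in every library of both groups. A 375 bp peak on chr5:60434012-60434387 had the highest score in the table, 5097. Naive replicates 1, 2 and 3 had levels of 468, 316 and 485 CPM there, and tumour lines 1, 2 and 3 had 419, 400 and 427 CPM. Naive replicate 2 was the lowest of the 6 there, and the groups overlapped. The nearest other peak in the table lay 514 kb away.

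The peak of the next highest score, 1095, lay on chr18:75459515-75460303. It had 149, 180 and 161 CPM in naive libraries and 180, 171 and 151 CPM in tumour-derived lines, and the groups overlapped. On chr11:87405197-87406059 (score 1079) the level was 329 ± 50.5 CPM in naive organoids and 284 ± 50.2 CPM in tumour-derived lines (SD, n = 3 each). Also on chromosome 11, from 98937882 to 98938741 (score 883), the 3 naive libraries stood at 227, 233 and 222 CPM, and the tumour-derived lines at 253, 239 and 179 CPM.

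The other 6 of the 10 highest scores ran from 743 to 853. They lay on chr4:154956366-154956952, chr18:32158435-32159308, chr19:12039568-12040392, chr6:51670547-51671246, chr5:135624791-135625704 and chr2:34760279-34761052. Of the 10, 1 differed between the groups by edgeR's quasi-likelihood test at an adjusted p under 0.05, the peak on chromosome 5 from 135624791. It had 287 ± 42.6 CPM in naive organoids and 194 ± 26.6 CPM in tumour-derived lines (SD, n = 3 each). The difference between tumour-derived and naive means on the log2 scale, written log2FC from here on, was -0.57 (SE 0.18; edgeR adjusted p = 0.0304). That call was lost in 8 of 15 alternative fits, such as the edgeR fit without naive replicate 2 (log2FC -0.44, adjusted p = 0.125). The other 9 had log2FC values from -0.34 to 0.07.

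Level and score did not keep the same ratio across widths. Only 17 of the 1078 were under 500 bp wide, and their median level was 30.1 CPM, against 90.8 CPM for the 247 peaks of 900 bp or more. The median ratio of score to mean CPM was 10.9 in the short peaks and went down step by step with width, through 6.13, 4.99, 4.20 and 3.65, to 3.03 in the widest ones. Of the 34 narrow strong peaks with a ratio over 8, 11 were under 500 bp. The score limit lets in a peak of low level only if its ratio is high, and shorter peaks had lower median levels. The fall of the ratio with width and the count of short peaks with high ratios thus follow in part from the rule. How far they do was not tested. Naive replicate 2 was the highest of the 3 naive libraries at 830 of all 1078 narrow strong peaks (77.0%) and the lowest at 64 (5.94%). Of the 17 short ones it was the highest at 6 and the lowest at another 6. Over all peaks it was the highest at 31.5% and the lowest at 37.3%. In this the short peaks were nearer to peaks in general than narrow strong peaks as a whole were.

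The shortest were a pair of 213 bp. On chr1:194277920-194278133 naive replicates 1, 2 and 3 had 30.9, 11.4 and 23.9 CPM, and tumour lines 1, 2 and 3 had 16.8, 23.3 and 22.8 CPM. On chr9:115259940-115260153 they had 36.03, 16.2 and 30.3 CPM, then 16.5, 35.5 and 24.2 CPM. In both, naive replicate 2 and tumour line 1, the 2 deepest libraries, were the lowest of their groups. The next shortest, on chr1:46132863-46133141, had 21.4, 16.9 and 12.8 CPM and then 28.8, 14.8 and 12.3 CPM, and did not share that order. A peak of 341 bp on chr4:20118872-20119213, chosen after its values were seen, had it as well, with 9.003 CPM in naive replicate 2 against 32.6 and 19.2 in the other naive libraries, and 4.85 CPM in tumour line 1 against 24.3 and 31.3 in the other lines. This order was found at 4 of the 17 short peaks. How often it occurs at other peaks was not counted, so it is not shown to be particular to short ones.

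The share of a library's counts that fell in narrow strong peaks ran from 7.69% to 9.64%. Naive replicates 1, 2 and 3 had shares of 8.39%, 9.64% and 8.46%, and tumour lines 1, 2 and 3 had 8.44%, 8.30% and 7.69%. Naive replicate 2 was the highest and tumour line 3 the lowest, and the groups overlapped. The means were 8.83% ± 0.702 and 8.14% ± 0.397 (SD, n = 3 each), a difference of -0.69 percentage points (exact permutation test, 2-sided, p = 0.2; the smallest p for 3 against 3 is 0.1). The difference was -0.28 without naive replicate 2. The mean shares in narrow lower-score peaks were 34.3% in naive libraries and 35.6% in tumour lines, without overlap. In peaks of 1000 bp or more they were 56.8% and 56.3%, also without overlap (exact permutation test, 2-sided, p = 0.1 for each).

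**Figure D1:**
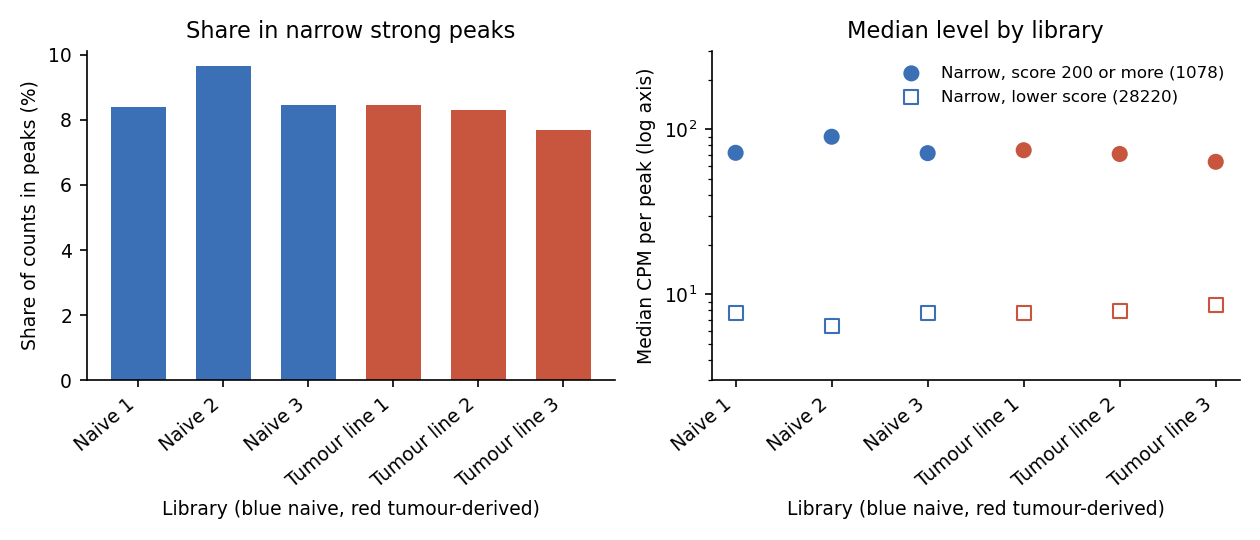
Left, share of the counts in peaks that lies in the 1078 narrow strong peaks, in percent, for each library; right, median CPM per peak on a log axis for those peaks (filled circles) and for the 28220 narrow peaks of lower score (open squares). Naive replicate 2 has the highest share (9.64%) and the widest gap between both kinds of peak, and tumour line 3 the lowest share (7.69%).

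The level of narrow strong peaks relative to the weaker narrow peaks of the same library was likewise highest in naive replicate 2 and lowest in tumour line 3. The median log2(CPM + 1) of narrow strong peaks exceeded that of narrow lower-score peaks by 3.07, 3.62 and 3.07 in the naive libraries, by replicate number. The difference in tumour lines 1, 2 and 3 was 3.12, 3.01 and 2.76. The groups overlapped, and the difference between their means was -0.29 (exact permutation test, 2-sided, p = 0.3; smallest possible 0.1). It was -0.10 without naive replicate 2 and -0.19 without tumour line 3. This contrast between strong and weak peaks within a library touches every fold change below, because TMM scaling gives a library 1 factor for all its peaks.

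Narrow strong peaks were called as different between tumour-derived and naive organoids about as often as peaks in general. The median SE of the log2FC was 0.22 at narrow strong peaks and 0.39 over all tested peaks. Smaller differences can thus be called at narrow strong peaks, and similar shares called do not mean that similar shares differ. All 1078 passed the filter on low counts, and edgeR called 143 of them at an adjusted p under 0.05, or 13.3%, where 14.4% of all 36179 tested peaks were called. Accessibility was higher in tumour-derived lines at 56 peaks (5.19%, against 8% of all tested peaks) and lower at 87 (8.07%, against 6.4%). In bulk libraries, fewer cells with an open site and a less open site in every cell cannot be told apart. A fold of at least 2 was reached at 37 of the 56 and at 16 of the 87. Together these were 4.92% of narrow strong peaks, against 11.6% of all tested peaks. Of the 21422 tested narrow lower-score peaks 13.8% were called, 7.69% higher and 6.15% lower, and 12.6% were called with a fold of at least 2.

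Fold changes spanned a narrower range than at weaker peaks, where counts are small. Log2FC values at narrow strong peaks ran from -1.49 to 2.18, against -4.84 to 5.19 at tested narrow peaks of lower score. At least 4-fold differences were called at 3 narrow strong peaks, all higher in tumour-derived lines. The median log2FC of called peaks was 1.09 among those that rose and -0.79 among those that fell, and among narrow peaks of lower score these medians were 1.83 and -1.51. A weak peak needs a larger fold to be called, so medians over called peaks are not comparable in depth. The median size of the log2FC over all tested peaks, called or not, was 0.28 at narrow strong and 0.51 at narrow lower-score peaks. This contrast too goes with depth, and at equal levels the values were closer: 0.28 against 0.33 between 56.6 and 73.8 CPM, and 0.26 against 0.29 between 73.8 and 96.6 CPM.

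**Figure D2:**
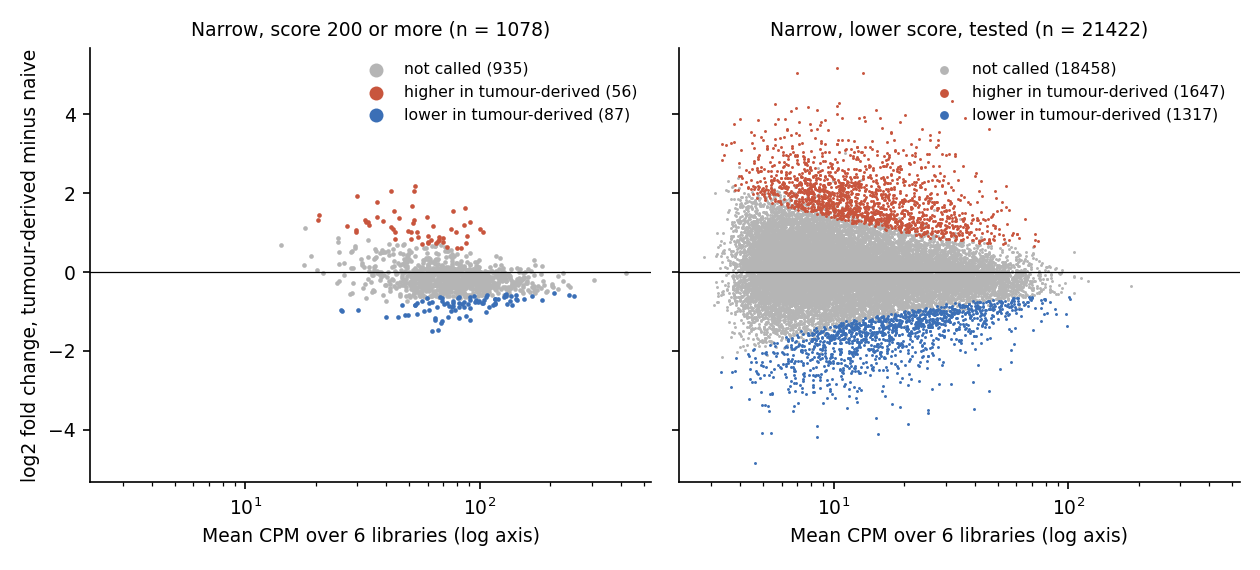
Log2 fold change of tumour-derived against naive organoids (vertical) over the mean CPM of 6 libraries (horizontal, log axis) for the 1078 narrow strong peaks (left) and the 21422 tested narrow peaks of lower score (right). Points are peaks, coloured where called by edgeR; narrow strong peaks sit between -1.49 and 2.18, with 56 higher and 87 lower, and the median lies at -0.19.

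The split between higher and lower calls depended on the scaling and on single libraries. Under TMM 753 of the 1078 narrow strong peaks had a log2FC below 0, and the median was -0.19, against -0.01 over all tested peaks. With offsets that follow abundance in each library, 85 narrow strong peaks were called higher and 63 lower, and the median was -0.02. With TMM factors taken from the narrow strong peaks alone, 85 were higher and 51 lower, and the median over all tested peaks became 0.16. The TMM fit called 40 higher and 29 lower without naive replicate 2, and 58 and 36 without tumour line 3. So the excess of lower over higher calls was not seen in these 4 fits. In the order given, 5.84%, 4.73%, 2.69% and 3.34% of narrow strong peaks were called lower. Over all tested peaks 6.54%, 3.32%, 2.23% and 4.22% were. The shares called higher were 7.88%, 7.88%, 3.71% and 5.38%, against 7.96%, 8.53%, 3.59% and 6.59%. Relative to all tested peaks, lower calls thus stayed more frequent with TMM over narrow strong peaks alone and without naive replicate 2. Every one of the 143 called peaks kept its direction in every fit that tested it, but many lost their call. With trended offsets 118 of the 143 stayed called, and with TMM over narrow strong peaks alone 107 did. Without naive replicate 2 it was 69, and without tumour line 3 it was 86.

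Where all 3 libraries of a group lay beyond all 3 of the other, the same tilt appeared. All 3 tumour-derived lines were above all naive libraries at 90 narrow strong peaks (8.35%, against 15.5% of all tested peaks) and below them at 232 (21.5%, against 15.3%). Of the called peaks, 52 of the 56 that rose and 82 of the 87 that fell were separated in this way. These counts rest on the same scaling.

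Failure to pass a test does not show that a peak did not differ, so the width of the intervals was counted too. For each peak the 95% interval of the log2FC was compared with fixed bounds. It lay wholly between -1 and 1, excluding a 2-fold difference either way, at 841 narrow strong peaks (78.0%, against 30.3% of all tested peaks and 18.5% of tested narrow lower-score peaks). It lay between -0.5 and 0.5 at 117 (10.9%, against 1.72% of all tested peaks). Of those within -1 and 1, 7 were nevertheless called as different. Another 101 peaks were neither called nor bounded by -1 and 1, so at these the data do not settle the size of the difference. The count within -0.5 and 0.5 was far less stable than the other. It was 319 with abundance-trended offsets, and 12, 10, 7, 8 and 10 without naive replicates 1 and 3 and tumour lines 1, 2 and 3, where each interval rests on fewer libraries. It was 104, however, without naive replicate 2.

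The spread within groups was smaller than at weaker peaks. The median SD of log2(CPM + 1) over the 3 naive libraries was 0.25 at narrow strong peaks and 0.39 at tested narrow peaks of lower score, and over the 3 tumour-derived lines it was 0.24 and 0.40. The naive value for narrow strong peaks was 0.15 without naive replicate 2. The coefficient of variation beyond counting error, from edgeR's dispersion with no sharing between peaks, had a median of 16.7% and 25.2%. The SD was larger in tumour-derived lines than in naive libraries at 506 of the 1078 peaks (46.9%).

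Over the 1078 peaks, which are no independent replicates of each other, Pearson's r of log2(CPM + 1) was 0.88 to 0.92 between naive libraries and 0.77 to 0.86 between tumour-derived lines. Between libraries of different groups it was 0.66 to 0.77. The same ranges over narrow lower-score peaks were 0.80 to 0.88, 0.77 to 0.80 and 0.62 to 0.73, over a wider range of levels. The median absolute difference between 2 libraries of a group was 0.21 to 0.34 (log2) at narrow strong peaks and 0.46 to 0.54 at narrow lower-score peaks.

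Counting error falls with read depth, so narrow peaks were also set side by side in equal ranges of mean CPM, set by the quartiles of the narrow strong peaks. Between 56.6 and 73.8 CPM, 77.7% of 269 narrow strong peaks and 71.3% of 279 lower-score peaks had an interval within -1 and 1. Between 73.8 and 96.6 CPM these shares were 82.9% of 269 and 78.8% of 66. The coefficient of variation beyond counting error had medians of 17.4% and 16.02% in the first of these ranges and 16.1% and 15.2% in the next. In these ranges, narrow peaks on the 2 sides of the score threshold had intervals and spreads of similar size. The contrast over all narrow peaks (78.0% and 18.5% for the interval) went with median levels of 73.8 and 8.09 CPM.

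The share of called peaks in these ranges was lower among narrow strong peaks, though few weaker peaks reached such levels. It was 11.9% against 18.6% between 56.6 and 73.8 CPM, and 12.3% against 19.7% between 73.8 and 96.6 CPM. With abundance-trended offsets these pairs were 14.9% against 18.3%, and 12.3% against 16.7%. The fit without naive replicate 2 gave 6.32% against 6.81%, and 6.32% against 9.09%. The lowest range, 14.3 to 56.6 CPM, held 270 narrow strong and 7637 lower-score peaks whose median levels differed (47.2 and 23.7 CPM), so it does not compare like with like. Above 96.6 CPM there were 270 and 12.

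**Figure D3:**
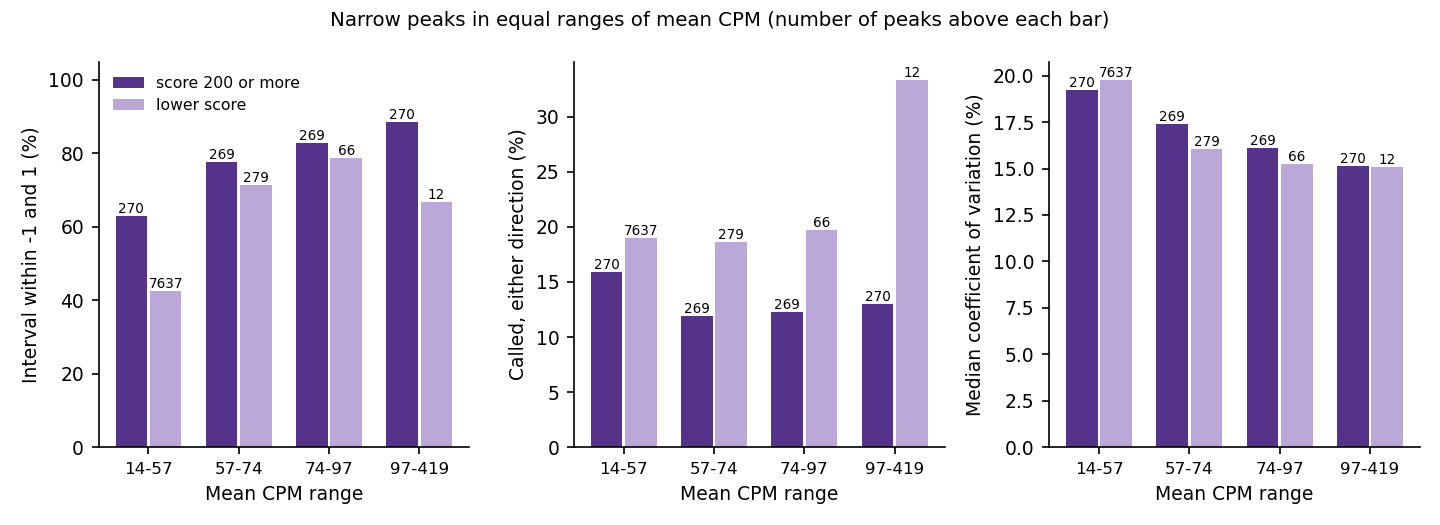
Narrow peaks of score 200 or more (dark) and of lower score (light) in 4 ranges of mean CPM: share with a 95% interval within -1 and 1, share called, and median coefficient of variation beyond counting error, all in percent, with the number of peaks above each bar. In the middle ranges the first and the last measure are close in both kinds of peak (77.7% and 71.3%, then 82.9% and 78.8% for the interval).

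Under TMM, direction changed with level at narrow strong peaks and also at weaker narrow peaks, few of which lay in the upper ranges. In the lowest quartile of mean CPM, 31 narrow strong peaks were called higher and 12 lower (11.5% and 4.44%), and in the highest quartile 2 were higher and 33 lower (0.741% and 12.2%). At narrow lower-score peaks 710 were higher and 741 lower in the lowest range, then 9 and 43, 1 and 12, and 0 and 4 in the ranges above it. Trended offsets remove such a trend in each library by design. With them, the counts at narrow strong peaks were 36 and 11 in the lowest and 8 and 20 in the highest quartile. At narrow lower-score peaks they were 690 and 743, then 21 and 30, 1 and 10, and 1 and 2. Without naive replicate 2 the counts at narrow strong peaks were 22 and 5, and 2 and 6.

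The 8 narrow strong peaks with the highest fold changes rose between 2.93-fold and 4.54-fold in tumour-derived lines. The first was on chr11:72319743-72320510, a peak of score 200.6 close to the threshold. Naive replicates 1, 2 and 3 had 24.9, 17.1 and 16.2 CPM there, and tumour lines 1, 2 and 3 had 38.2, 142 and 78.3 CPM. Every tumour line was above every naive library, but the lines themselves spread widely. The log2FC was 2.18 (SE 0.38; edgeR adjusted p = 0.00121), and it was 1.61 without tumour line 2, the highest line.

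The next was on chr15:85177382-85178253. It had 8.58, 14.1 and 23.9 CPM in naive organoids, resting on 10, 77 and 56 reads, and 53.3, 86.8 and 63.1 CPM in tumour-derived lines (log2FC 2.07, SE 0.30; edgeR adjusted p = 5.69e-05). A peak on chr5:3151967-3152819 had 24.9, 16.2 and 20.9 CPM in naive organoids and 58.5, 107 and 86.8 CPM in tumour-derived lines. Its log2FC was also 2.07 (SE 0.27; edgeR adjusted p = 1.31e-05). These 3 are the peaks with at least 4-fold differences, and groups did not overlap at any of them, as the rule for naming them requires.

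A second peak on chromosome 5, from 53562793 to 53563436, had the closest tumour-derived lines of the 8. They stood at 43.6, 47.1 and 51.2 CPM, against 11.2, 9.003 and 17.5 CPM in naive organoids (log2FC 1.93, SE 0.31; edgeR adjusted p = 0.000124). Its nearest neighbour, a weaker narrow peak 1.75 kb away, rose with it (log2FC 2.79, adjusted p = 0.000568, edgeR). The most open of the 8 in tumour-derived lines was on chr3:38175652-38176616, with 147, 135 and 113 CPM against 26.6, 44.3 and 53.8 CPM (log2FC 1.63, SE 0.23; edgeR adjusted p = 3.05e-05). Its neighbour 1.71 kb away, a peak over 1000 bp wide, rose as well, by 2.29 on the log2 scale (adjusted p = 4.02e-05, edgeR).

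The remaining 3 of the 8 rose by 1.55 to 1.78 on the log2 scale. They lay on chr18:25668989-25669795, where the mean level was 56.6 ± 21.9 CPM against 16.5 ± 2.63 CPM in naive organoids (SD, n = 3 each). On chr8:63762163-63763038 it was 78.5 ± 21.9 against 24.3 ± 5.38 CPM. On chr8:27923305-27924115 it was 115 ± 16.98 against 38.8 ± 7.19 CPM. Neighbours did not always move the same way. The nearest peaks of the chromosome 5 peak at 3151967 and of the chromosome 8 peak at 63762163 fell, the former by 1.25 and the latter by 1.02 on the log2 scale (edgeR, adjusted p = 0.0284 and 0.0480).

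The 8 narrow strong peaks with the lowest fold changes were 2.24-fold to 2.81-fold lower in tumour-derived lines. All had been well open in naive organoids, with means from 89.2 to 126 CPM, and still had means of 33.0 to 54.7 CPM in tumour-derived lines. The lowest fold change was on chr1:89797404-89798277, with 82.4, 103 and 91.4 CPM in the naive libraries and 32.8, 29.6 and 36.5 CPM in the tumour-derived ones. Libraries of a group were close and the groups lay far apart (log2FC -1.49, SE 0.22; edgeR adjusted p = 5.54e-05).

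On chr13:5424596-5425331 the level was 98.7, 108 and 85.0 CPM in naive organoids and 37.4, 24.9 and 42.7 CPM in tumour-derived lines. This gave a log2FC of -1.47 (SE 0.23; edgeR adjusted p = 0.000116), and -1.17 when each library was centred on its own chromosome 13. A peak on chr18:21373425-21374196 had the tightest replicates of the 16 named for their change. It had 93.5, 90.4 and 83.7 CPM in naive organoids, and 39.6, 40.7 and 38.9 CPM in tumour-derived lines (log2FC -1.16, SE 0.21; edgeR adjusted p = 0.000524). Of the 8 that fell, the widest spread between tumour-derived lines was on chr5:109137952-109138660. The lines had 21.7, 44.5 and 58.8 CPM there, against 103, 108 and 79.0 CPM in naive organoids (log2FC -1.24, SE 0.28; edgeR adjusted p = 0.00388), and the fold change was -0.90 without tumour line 1.

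The other 4 had log2FC values from -1.30 to -1.18. They lay on chr3:40936776-40937578, chr6:115453232-115454086, chr4:45695740-45696649 and chr2:167139104-167139878. None of the nearest neighbours of these 8 peaks was called, and 1 of those neighbours was not tested. The nearest neighbour of the chromosome 4 peak lay 95.9 kb away.

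**Figure D4:**
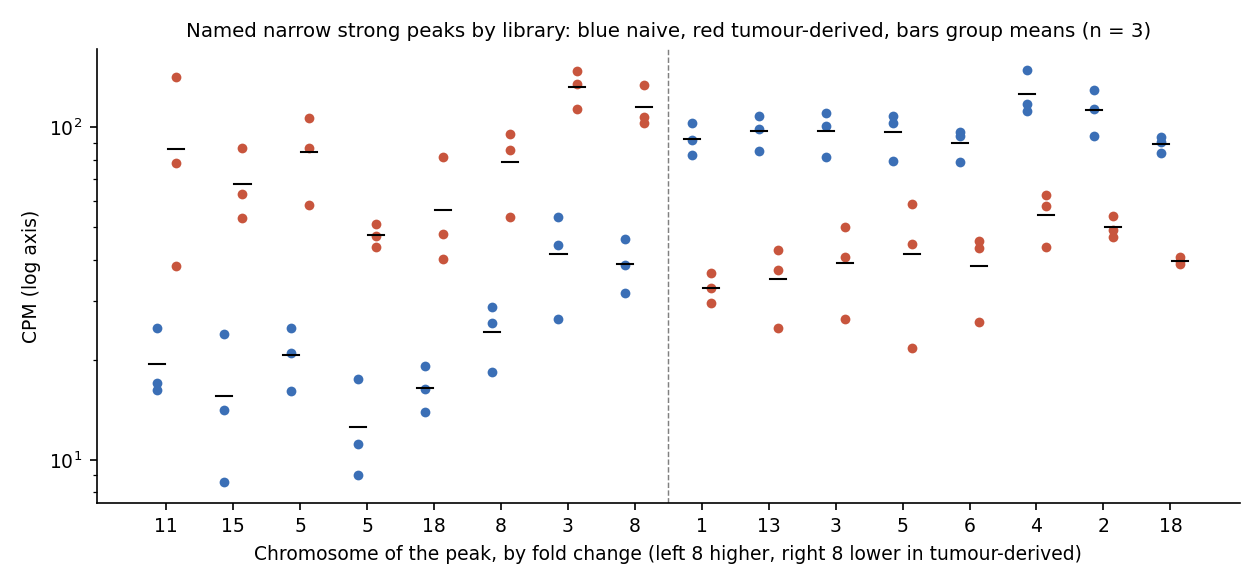
CPM (log axis) in each library at the 8 narrow strong peaks with the highest and the 8 with the lowest fold changes, labelled by chromosome; blue points are the 3 naive libraries, red points the 3 tumour-derived lines and bars the group means. The groups do not overlap at any of the 16, and the peaks that fell still stood at 33.0 to 54.7 CPM on average in tumour-derived lines.

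At the other end, some narrow strong peaks hardly differed among the 6 libraries. The 6 steadiest, chosen for that, had an SD of log2(CPM + 1) over all libraries of 0.081 to 0.094. On chr5:30034505-30035395 the naive libraries stood at 88.4, 91.5 and 82.9 CPM, and tumour lines 1, 2 and 3 at 87.8, 93.1 and 97.7 CPM. On chr6:28371137-28372052, the strongest of them with a score of 617, they were 126, 148 and 135 CPM and then 130, 135 and 123 CPM. On chr8:79425491-79426489 the naive mean was 121 ± 6.07 CPM and the tumour-derived mean 114 ± 7.42 CPM (SD, n = 3 each).

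The remaining 3 steady peaks lay on chr1:93194366-93195202, chr4:123265802-123266708 and chr11:60520782-60521671, with mean levels from 67.9 to 92.9 CPM. The 95% intervals of the 6 log2FC values lay between -0.47 and 0.51. A small SD over all 6 libraries leaves little room for a difference between the groups, so these intervals follow from how the peaks were chosen. Differences of up to about these bounds stay inside the intervals.

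Differences between single lines were rare at narrow strong peaks. Only 1 of the 1078 was at least 2-fold higher (on the log2(CPM + 1) scale) in tumour line 1 than in both other lines, and none was so in line 2 or 3. In tumour lines 1, 2 and 3, 6, 0 and 5 peaks were at least 2-fold lower than in both other lines. Among narrow peaks of lower score, where counts are small, between 2.72% and 3.35% were alone in being higher in a tumour line and between 2.28% and 7.19% in being lower. These shares are not comparable in depth.

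Narrow strong peaks were found on every autosome and on chromosome X. Chromosome 7 held the most, 96, or 3.86 for every 100 peaks of the chromosome, and chromosome 19 had 3.69. Chromosome X had 12, or 1.16 for every 100, the lowest of the chromosomes with any, and chromosome 13 had 1.61. The distance to the nearest other peak had a median of 7.23 kb (quartiles 4.17 and 16.4 kb), and 7.10 kb (2.84 and 20.04 kb) for narrow lower-score peaks. The nearest peak was within 5 kb at 363 narrow strong peaks and 100 kb or more away at 23, against 11340 and 1529 of the 28220 narrow lower-score peaks.

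Narrow strong peaks with close neighbours were called more often than those far from any other peak. Of the 854 with another peak within 20 kb, 127 (14.9%) were called, close to the 14.4% of all tested peaks. Of the 224 with none so close, 16 (7.14%) were called. The median levels of the 854 and the 224 were 74.5 and 72.2 CPM, and neither level nor width was matched between them. The 16 comprised 6 higher and 10 lower. The share was lower at the isolated peaks in each of 16 other fits, with the closest ratio without chromosomes 4, 5, 13, 18 and 19 (10.9% against 15.3%). It was 3.57% against 7.14% without naive replicate 2, with 8 and 61 called. The difference itself was not tested. Over narrow peaks of lower score, tested or not, the called share likewise went from 12.8% within 5 kb to 5.43% at 100 kb or more. Their median level fell alongside from 10.0 to 4.07 CPM.

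Neighbours of called narrow strong peaks were called in the same direction at a share above that of all tested peaks. Of the 56 peaks that rose, 50 had a nearest neighbour that was tested, of which 14 were higher (28.0%, against 8% of all tested peaks) and 2 lower. Of the 87 that fell, 73 had a tested neighbour, of which 10 were lower (13.7%, against 6.4%) and 3 higher. Next to the narrow strong peaks that were not called, 5.58% of tested neighbours were higher and 6.07% lower. The counts were 7 higher of 38 and 2 lower of 25 without naive replicate 2, a fit in which 3.59% of all tested peaks were higher and 2.23% lower. These were computed as a description with no test, and the neighbours of peaks that rose were mostly other kinds of peak, since 1 of the 56 nearest neighbours was itself a narrow strong peak.

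Tumour-derived lines differed from each other by chromosome. For each library the median over narrow strong peaks of a chromosome of the log2 ratio to the naive mean was taken. On chromosome 13, with 33 narrow strong peaks, it was lowest in tumour line 2, at -0.91, followed by line 3 at -0.54 and line 1 at -0.19. The naive libraries had -0.03, 0.16 and -0.11. Over all autosomes the medians ran from -0.41 to 0.31 in line 1 and from -0.91 to 0.15 in line 2. Line 3 was below the naive mean on every autosome, with medians from -0.54 to -0.14. Of the 33, 12 (36.4%) were called lower and 1 higher, against 7.18% lower on the other chromosomes together. The count was 3 without tumour line 2, 6 without line 3, 19 without line 1, 4 without naive replicate 2, and 3 when each library was centred on each chromosome, in which case 3 were higher. Over all tested peaks of chromosome 13, 13.2% were called lower.

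Chromosomes 5 and 1 held 15 of 89 (16.9%) and 12 of 72 (16.7%) lower calls. Over all tested peaks of these chromosomes 8.93% and 8.22% were lower, and over narrow strong peaks of the other chromosomes 7.28% and 7.46%. Tumour line 1 had its lowest median on chromosome 5, at -0.41, where lines 2 and 3 had -0.15 and -0.26. Without line 1, 8 of the 89 were called lower, and without naive replicate 2, 6 were. On chromosome 1 the lower calls numbered 6, 6 and 2 without tumour lines 1, 2 and 3, and 6, 1 and 7 without naive replicates 1, 2 and 3. Tumour line 1 was above the naive mean on chromosomes 16, 18, 19 and 8, with medians of 0.31, 0.25, 0.24 and 0.23. On chromosomes 10 and 1 it had -0.37 and -0.32, not far from its value on chromosome 5. Over the autosomes the medians had an SD of 0.22, 0.20 and 0.09 in tumour lines 1, 2 and 3, and of 0.03 to 0.04 in naive libraries. The naive values are smaller in part by construction, since the ratios are to the mean of these same libraries.

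**Figure D5:**
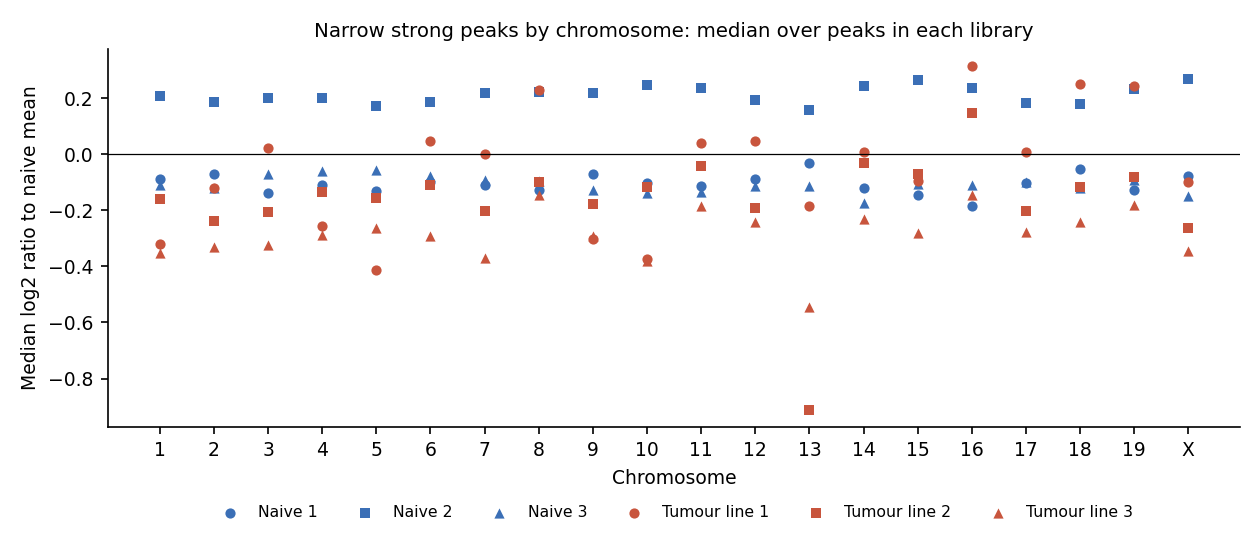
Median log2 ratio of each library to the naive mean over the narrow strong peaks of each chromosome; blue symbols are naive libraries and red symbols tumour-derived lines, with a symbol for each replicate number. Naive replicate 2 lies above 0 throughout and tumour line 2 falls to -0.91 on chromosome 13. Naive libraries lie near 0 in part because they make up the mean they are compared with.

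The share of narrow strong peaks that were called varied little with width and score. By width, from 11.1% (of 72 peaks of 500 to under 600 bp) to 17.6% (3 of 17 under 500 bp) were called. All 3 called peaks under 500 bp were lower, and 2 of them lay on chromosome 13. By score, 13.1% of the 427 peaks from 200 to under 250 were called, and 13.9% of the 173 from 400 to under 800. None of the 6 peaks of 800 or more was called, and all 6 had intervals within -1 and 1. The share with such an interval rose from 74.2% in the lowest of these score groups to 89.0% in that from 400 to under 800, as did the median level, from 59.2 to 126 CPM.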

How the data were processed

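The authors deposited 1 table of read counts for 6 ATAC-seq libraries over 1 peak set shared by all samples, per the file's row names. Build mm9 and the tools MACS2, bedtools, Bowtie, SAMtools and Picard are named in the submitters' processing notes, with no roles. How peaks were kept, whether read ends were shifted for Tn5 and what was done with duplicates, the sources used here do not say. Coordinates are as the table prints them. Each peak name also holds the authors' score.

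Counts were filtered with filterByExpr, scaled by TMM and tested over the whole table with edgeR 4.0.16 (R 4.3.3) by its robust quasi-likelihood F test with group as the sole term, 2-sided. P-values were adjusted over 36179 peaks by Benjamini-Hochberg, with calls at 0.05. SE and 95% intervals came from the fold change and F. Levels are CPM or log2(CPM + 1) computed here from the counts. The script was tested on simulated data.

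Named peaks were the 10 highest scores, the 8 highest and 8 lowest fold changes among called, separated peaks with a mean count of at least 20, the 6 smallest SDs, the 3 narrowest, and the 2 on each side of the score threshold. Members and lists were chosen with earlier results of these data known. Alternatives were other scalings, filters, DESeq2 1.42.0, a replicate block, left-out libraries and chromosomes, and other score and width limits. Sequence motifs and gene starts, planned only for a genome of the files' build, were not used here. Same-numbered libraries had correlated deviations of -0.24, -0.11 and 0.00 across groups, so the numbers were not taken to pair them.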

Additional observations from a re-analysis of the deposited data

How the results depend on the processing

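No called narrow strong peak changed sign in any fit that tested it, and the 16 peaks named for their change kept their calls in every such fit, with folds moving by less than 1.5 times. All fits share the same libraries, in which these peaks were chosen. Among fits that tested all 143 called peaks, 69 stayed called without naive replicate 2, the fewest. The most, 137, stayed called with a filter of at least 20 counts in 3 libraries. Higher calls (56) became 85 with trended offsets and 85 with TMM over narrow strong peaks alone, and lower calls (87) became 51 with the latter; these settings change the centring. Leaving out 1 library gave 38 to 58 higher and 29 to 87 lower calls, 704 to 856 intervals within -1 and 1, and 7 to 104 within -0.5 and 0.5 (117 with all). The cause was not tested. The last count was 231 with total counts, 319 with trended offsets and 50 with no filter. The median naive SD was 0.15 to 0.24 with a naive library left out (0.25 with all).

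Other limits change the number of peaks chosen. A score of 100 or more (3413 peaks) gave 337 higher (9.87%), 269 lower (7.88%) and 2183 intervals within -1 and 1. At that limit 17.8% were called, against 14.4% of all tested peaks, and higher calls outnumbered lower ones. A score of 400 or more (179) gave 6 higher, 18 lower, 160 intervals within -1 and 1 and 30 within -0.5 and 0.5. A width under 750 bp (403) gave 24, 30, 291 and 26, and a width under 1500 bp (1610) gave 73, 139, 1303 and 182. The called shares at these other limits were 13.4%, 13.4% and 13.2%, in the order given. The fit with a replicate block called 43 higher and 67 lower, although replicate numbers were not taken to pair the libraries. Whether libraries are paired in some other way is not known. Naive replicate 1 was the shallowest library, with 1185356 counts.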
